A study of Mus musculus with 22 samples.

Results

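Kidney transcripts of 10 genes of the endoplasmic reticulum (ER) were followed around the circadian cycle in mice without the transcription factor Clock and in wild-type mice. The genes are Hspa5, Hsp90b1, Calr, Canx, Pdia3, Pdia4, Pdia6, Herpud1, Dnajb9 and Xbp1. They were chosen by name with earlier results of these data known, each as the brightest probe set that carries its symbol alone. All 10 passed the filter on dim probe sets and are 10 of the 15589 genes tested. Although they are grouped as ER chaperones, Herpud1 acts in the degradation of misfolded ER proteins and Xbp1 is a transcription factor of the ER stress response. The knockout (KO) samples, labelled clock(-/-), are 11 arrays, and the wild-type (WT) samples, labelled wild type, are 11 arrays. Per the labels, the KO colony was bred from heterozygous pairs, all mice were held for 2 weeks in 12 h of light and 12 h of dark and then for 30 h in constant darkness; no label used here gives the deleted exons, strain, sex or age. Left kidneys were taken every 4 h and are named by zeitgeber time (ZT). The light of the earlier cycle had come on at ZT0 and gone off at ZT12, so ZT12 to ZT24 is the subjective night. Each array is 1 pool of RNA from 2 or 3 mice, with 2 pools per time and genotype except a single pool for KO at ZT16 and for WT at ZT8. All levels are log2 values made by the authors with RMA, and differences between arrays are therefore log2 ratios. The number of arrays limits the precision, and nothing in the labels says that the pools came from separate litters or days, so the p-values reflect how far these pools differ, which may be technical.

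Proteins that enter the secretory pathway fold inside the ER with the help of resident chaperones. Hspa5 (BiP) is the ER member of the Hsp70 family and Hsp90b1 (Grp94) that of the Hsp90 family. Calr (calreticulin) and Canx (calnexin) bind the sugar chains of new glycoproteins, together with Pdia3, and Pdia3, Pdia4 and Pdia6 are protein disulfide isomerases. When unfolded proteins accumulate, the sensors Atf6, Ern1 and Eif2ak3 start the unfolded protein response, in which cleaved Atf6 and spliced Xbp1 raise the transcription of chaperones through ER stress response elements in their promoters. Dnajb9 (ERdj4) is a co-chaperone of Hspa5, and Herpud1 recruits misfolded proteins to ER-associated degradation. Kidney tubule cells make large amounts of membrane transporters and of secreted proteins such as uromodulin, all of which pass through the ER.

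The arrays were alike, with medians between 5.88 and 6.01 log2 and Pearson correlations over all probe sets of 0.987 to 0.993 within a group. Of 9 kidney markers listed, 8 were measured, with means from 7.26 log2 (Nphs1) to 13.1 log2 (Slc34a1). The probe set of the targeted gene Clock read 8.73 to 9.11 log2 in KO and 8.47 to 9.16 log2 in WT. Since the extent of the deletion is not used here, this probe set does not check the genotype. The KO pools at ZT20 stood apart from the other KO arrays in the anion transporter Slco1a1, whose transcript is known to be more abundant in male than in female kidney (5.18 and 6.30 log2, against 8.15 to 10.5 log2 on the other KO arrays and 9.01 to 11.1 log2 in WT). The counts of KO rhythms are given with and without these pools. In whole kidney, fewer cells of a type and less RNA per cell cannot be told apart.

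Letter patterns of the ER stress response element (ERSE) were looked up in the promoters, since ER chaperones are known to be induced through it. The windows were RefSeq's GRCm38.p6 sequences from 250 bases before to 50 after each gene's start, and all 10 members had one. The ERSE was searched on both strands as CCAAT, then 9 bases of any kind, then CCACG. It was found in the windows of Hspa5, Hsp90b1, Calr, Canx and Pdia6, which are 5 of the 10 members, whereas 39 of 32851 windows of all genes (0.119%) hold it. ERSE-II, searched as ATTGG, then 1 base, then CCACG, was found in Herpud1 alone among the members and in 0.0365% of all windows. The search began from the known induction, so the contrast with all windows is a description and not an independent result. The stretches below run 5′ to 3′ along each gene's own strand, all upstream of its start, with the letters of the element in capitals, or their complement where the element lies on the other strand.
Hspa5: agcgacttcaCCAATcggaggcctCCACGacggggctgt
Hsp90b1: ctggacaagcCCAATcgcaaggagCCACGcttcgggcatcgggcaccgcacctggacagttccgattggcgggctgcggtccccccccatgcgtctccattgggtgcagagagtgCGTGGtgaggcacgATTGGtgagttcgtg
Calr: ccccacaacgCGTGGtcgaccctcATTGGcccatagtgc
Canx: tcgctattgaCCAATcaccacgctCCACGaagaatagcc
Pdia6: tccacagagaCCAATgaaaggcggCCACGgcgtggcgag
Herpud1: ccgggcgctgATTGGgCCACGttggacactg

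On GRCm38.p6 the stretch of Hspa5 lies at chr2:34772015-34772053 (plus strand), that of Hsp90b1 at chr10:86705523-86705666 (minus strand) and that of Calr at chr8:84847065-84847103 (minus strand). That of Canx lies at chr11:50325790-50325828 (minus strand), that of Pdia6 at chr12:17266481-17266519 (plus strand) and that of Herpud1 at chr8:94386367-94386397 (plus strand). The Hspa5 element spans bases -65 to -47 from the start of the gene. Hsp90b1 holds 2 elements, the distal one at -212 to -194 on the gene's strand and the proximal one at -107 to -89 on the other strand. Herpud1 holds the short ERSE-II at -52 to -42. The core TGACGTG, which Xbp1 and Atf6 are known to bind, was found in Hspa5 at -157 to -151 and in 2.01% of all windows. The E-box CACGTG, the letters bound by Clock and its partner Arntl, was found in Calr at -224 to -219 and in Dnajb9 at -107 to -102, and in 7.15% of all windows. Neither the D-box core TTATGTAA nor the heat shock element GAANNTTC was found in the windows of the 10 members, and 0.938% and 7.86% of all windows hold them. Such matches describe letters and are not evidence of binding.

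With all arrays, 6 of the 10 members cycled in both genotypes. A wave of 24 h was fitted to each genotype, and a gene was called rhythmic at an adjusted p under 0.05 in limma's moderated F test, with Benjamini-Hochberg adjustment over all genes tested. In KO, 7 of the 10 members were rhythmic, against 1.89% of all genes tested, and in WT 6 of the 10 were, against 5.16%. Since the members were chosen with earlier results of these data known, the contrast with all genes is a description. The 6 members called in both genotypes are Hspa5, Hsp90b1, Calr, Pdia4, Pdia6 and Herpud1, and 0.879% of all genes were called in both. Pdia3 passed in KO alone, which does not show that its rhythm differs between genotypes. Canx, Dnajb9 and Xbp1 passed in neither. The fitted peak lay in the subjective night for 6 of the 7 called in KO and for all 6 called in WT. Of all genes called rhythmic, 93 of 294 in KO and 218 of 804 in WT had a night peak. These are 0.597% and 1.40% of all genes tested.

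The KO calls depended on the ZT20 pools. Without both of them, 1 member, Hspa5 (amplitude 0.41 log2, limma adjusted p = 0.0469), was called in KO, and 12 of all genes were. The KO amplitudes of Hsp90b1, Calr, Pdia3, Pdia4 and Pdia6 in that fit were 0.29, 0.28, 0.25, 0.28 and 0.31 log2, against 0.29, 0.28, 0.22, 0.25 and 0.31 log2 with all arrays. Hspa5 had 0.41 log2 against 0.35 log2, Canx 0.12 against 0.08 log2, Herpud1 0.29 against 0.34 log2, Dnajb9 0.19 against 0.25 log2 and Xbp1 0.22 against 0.22 log2. Of the fits that leave out a single array, 5 members were called in KO without the KO pool at ZT16 or without either KO pool at ZT20.

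**Figure D1:**
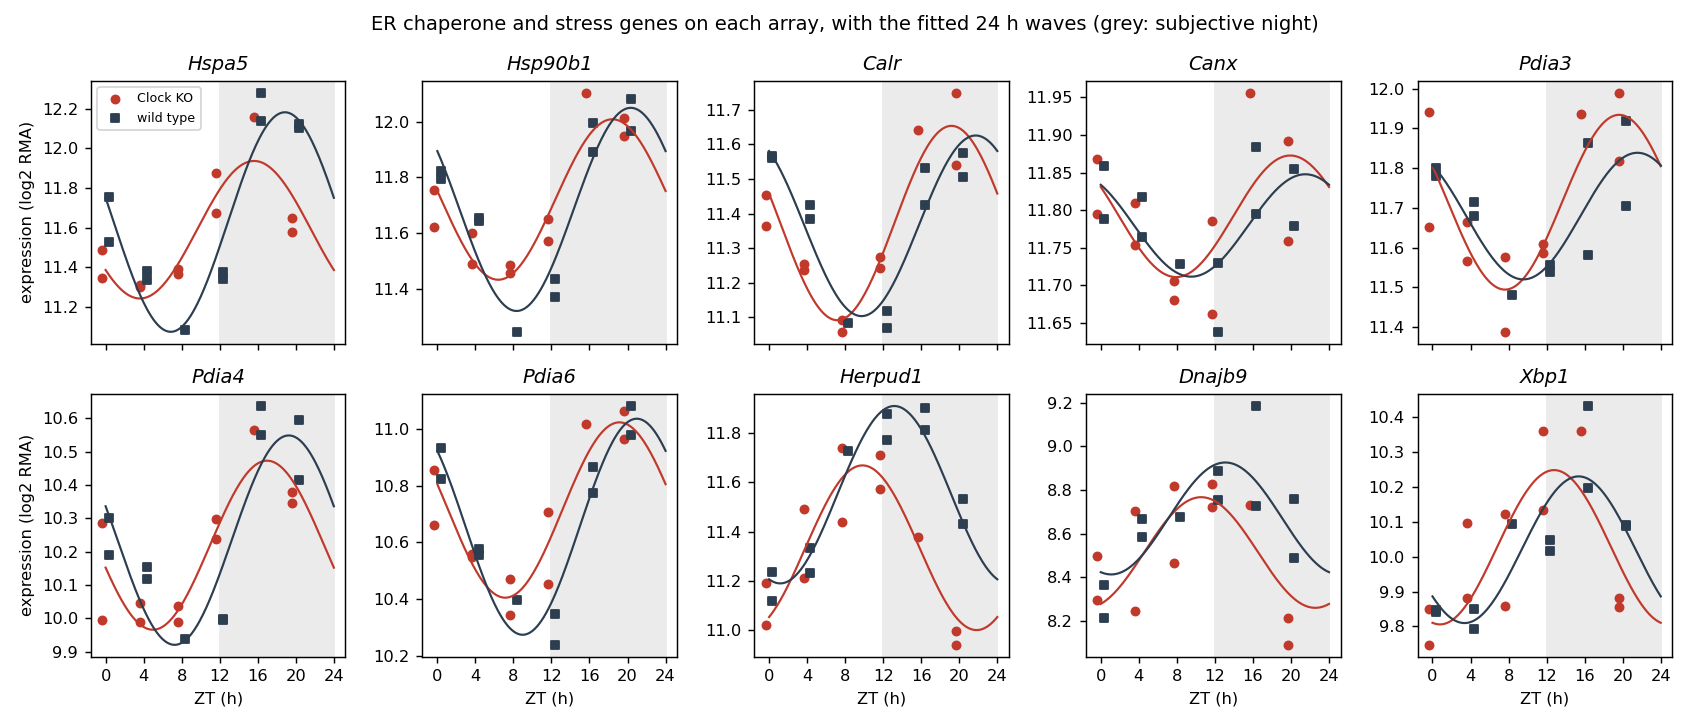
Log2 RMA expression of the 10 genes on each array against ZT in hours, with Clock KO pools as red circles, WT pools as dark squares and the fitted 24 h wave of each genotype as a line. The grey area is the subjective night, and the points of one time are set apart sideways for legibility. In most panels the red wave lies to the left of the dark one at about the same height, and in Hspa5 it is flatter.

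Hspa5, the major Hsp70 of the ER and a binding partner of all 3 stress sensors, had the widest swing of the 10 in WT. The KO arrays read 11.49 and 11.35 (ZT0), 11.30 and 11.31 (ZT4), 11.39 and 11.37 (ZT8), 11.88 and 11.67 (ZT12), 12.16 (ZT16), 11.58 and 11.65 (ZT20) (log2). The WT arrays read 11.75 and 11.53 (ZT0), 11.33 and 11.38 (ZT4), 11.08 (ZT8), 11.34 and 11.37 (ZT12), 12.14 and 12.28 (ZT16), 12.12 and 12.10 (ZT20). KO pools were above WT pools at ZT8 and ZT12 and below them at ZT0, ZT4 and ZT20, and the genotypes overlapped at ZT16. In WT the gene stayed high at ZT20, whereas in KO the single pool of ZT16 was the highest and ZT20 was below both pools of ZT12. The fitted amplitude, the distance from mean to peak, was 0.35 ± 0.06 log2 in KO (adjusted p = 0.0131) and 0.55 ± 0.06 log2 in WT (adjusted p = 5.33e-05), both from limma. From trough to peak the fitted waves span 1.62-fold in KO and 2.16-fold in WT. Pools of one group differed with an SD of 0.08 log2. The KO rhythm was not called without the single KO pool at ZT16 (amplitude 0.27 log2, adjusted p = 0.0928).

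Hsp90b1, the ER form of Hsp90 that folds integrins and Toll-like receptors, cycled in both genotypes. Its KO arrays read 11.76 and 11.62 (ZT0), 11.60 and 11.49 (ZT4), 11.49 and 11.46 (ZT8), 11.65 and 11.57 (ZT12), 12.10 (ZT16), 12.01 and 11.95 (ZT20). Its WT arrays read 11.82 and 11.79 (ZT0), 11.64 and 11.65 (ZT4), 11.25 (ZT8), 11.44 and 11.37 (ZT12), 11.89 and 11.99 (ZT16), 12.08 and 11.97 (ZT20). The lowest WT value is that of the single pool at ZT8, and in each genotype all pools of ZT16 and ZT20 lie above all other pools. The amplitude was 0.29 ± 0.05 log2 in KO (limma adjusted p = 0.00639) and 0.36 ± 0.05 log2 in WT (adjusted p = 0.000222). Its peak lay at ZT18.4 ± 0.58 h in KO and ZT20.3 ± 0.45 h in WT.

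Of the lectin chaperones, the soluble Calr cycled and the membrane-bound Canx did not pass. Calr read 11.45 and 11.37 (ZT0), 11.25 and 11.24 (ZT4), 11.06 and 11.09 (ZT8), 11.24 and 11.28 (ZT12), 11.64 (ZT16), 11.54 and 11.75 (ZT20) in KO. In WT it read 11.57 and 11.56 (ZT0), 11.43 and 11.38 (ZT4), 11.08 (ZT8), 11.07 and 11.12 (ZT12), 11.43 and 11.53 (ZT16), 11.57 and 11.51 (ZT20). In KO it was lowest at ZT8, and in WT the single pool of ZT8 lay between the pools of ZT12. KO pools were below WT pools at ZT0 and ZT4 and above them at ZT12 and ZT16. Its amplitude was 0.28 ± 0.04 log2 in KO (limma adjusted p = 0.00165) and 0.26 ± 0.04 log2 in WT (adjusted p = 0.000995). Canx, the membrane-bound lectin, read 11.79 and 11.87 (ZT0), 11.75 and 11.81 (ZT4), 11.68 and 11.71 (ZT8), 11.66 and 11.79 (ZT12), 11.96 (ZT16), 11.76 and 11.89 (ZT20) in KO. Its WT values were 11.79 and 11.86 (ZT0), 11.76 and 11.82 (ZT4), 11.73 (ZT8), 11.64 and 11.73 (ZT12), 11.79 and 11.88 (ZT16), 11.78 and 11.86 (ZT20). The genotypes overlap at 4 of the 6 times. Its amplitude was 0.08 ± 0.03 log2 in KO (adjusted p = 0.451) and 0.07 ± 0.04 log2 in WT (adjusted p = 0.425). Canx is the member with an ERSE in its window that was not called in either genotype.

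Of the disulfide isomerases among the members, Pdia4 and Pdia6 were called in both genotypes and Pdia3 in KO alone. Pdia6, which has thioredoxin domains and works with Hspa5, read 10.86 and 10.66 (ZT0), 10.56 and 10.55 (ZT4), 10.47 and 10.34 (ZT8), 10.71 and 10.46 (ZT12), 11.02 (ZT16), 10.96 and 11.06 (ZT20) in KO. In WT it read 10.93 and 10.82 (ZT0), 10.58 and 10.56 (ZT4), 10.40 (ZT8), 10.35 and 10.24 (ZT12), 10.77 and 10.87 (ZT16), 11.08 and 10.98 (ZT20). The pools of ZT16 and ZT20 were above all pools of ZT4 to ZT12 in each genotype. Its amplitude was 0.31 ± 0.04 log2 in KO (limma adjusted p = 0.00238) and 0.38 ± 0.04 log2 in WT (adjusted p = 9.87e-05). Pdia4, the isomerase also called ERp72, read 10.29 and 9.99 (ZT0), 9.99 and 10.04 (ZT4), 9.99 and 10.04 (ZT8), 10.24 and 10.30 (ZT12), 10.56 (ZT16), 10.35 and 10.38 (ZT20) in KO. The WT pools gave 10.30 and 10.19 (ZT0), 10.12 and 10.15 (ZT4), 9.94 (ZT8), 9.999 and 9.996 (ZT12), 10.55 and 10.64 (ZT16), 10.59 and 10.41 (ZT20). It was highest at ZT16 in both genotypes, with KO pools above WT pools at ZT8 and ZT12 and below them at ZT4 and ZT20. Its amplitude was 0.25 ± 0.05 log2 in KO (adjusted p = 0.0287) and 0.31 ± 0.05 log2 in WT (adjusted p = 0.00299), and the KO call was lost without KO pool 1 of ZT4, pool 2 of ZT12, the single pool of ZT16 or any pool of ZT8 or ZT20. Pdia3, the partner of the lectins, read 11.94 and 11.65 (ZT0), 11.57 and 11.66 (ZT4), 11.39 and 11.58 (ZT8), 11.59 and 11.61 (ZT12), 11.94 (ZT16), 11.99 and 11.82 (ZT20) in KO. Its WT values were 11.80 and 11.78 (ZT0), 11.68 and 11.71 (ZT4), 11.48 (ZT8), 11.54 and 11.56 (ZT12), 11.58 and 11.86 (ZT16), 11.92 and 11.71 (ZT20). It was lowest at ZT8 in both genotypes and overlapped between them at ZT0, ZT8 and ZT20. Its amplitude was 0.22 ± 0.04 log2 in KO (adjusted p = 0.0245, lost without KO pool 1 of ZT8 or either KO pool of ZT20) and 0.16 ± 0.05 log2 in WT (adjusted p = 0.0961).

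Herpud1 cycled in both genotypes and peaked earlier than the other rhythmic members. It encodes a membrane protein of the degradation machinery. It read 11.02 and 11.19 (ZT0), 11.21 and 11.49 (ZT4), 11.44 and 11.74 (ZT8), 11.57 and 11.71 (ZT12), 11.38 (ZT16), 10.94 and 10.99 (ZT20) in KO. In WT it read 11.23 and 11.12 (ZT0), 11.34 and 11.23 (ZT4), 11.73 (ZT8), 11.77 and 11.88 (ZT12), 11.81 and 11.90 (ZT16), 11.43 and 11.53 (ZT20). In KO it was highest at ZT8 and ZT12 and lowest at ZT20, whereas in WT it was highest at ZT12 and ZT16 and lowest at ZT0. Its amplitude was 0.34 ± 0.04 log2 in KO (limma adjusted p = 0.00165) and 0.36 ± 0.04 log2 in WT (adjusted p = 0.00015). The fitted peak was ZT9.82 ± 0.56 h in KO, in the subjective day, and ZT13.2 ± 0.52 h in WT, so a night peak does not describe this gene in KO.

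Dnajb9 and Xbp1 had waves of moderate size that did not pass. Dnajb9, the co-chaperone of Hspa5, read 8.498 and 8.30 (ZT0), 8.25 and 8.71 (ZT4), 8.46 and 8.82 (ZT8), 8.72 and 8.83 (ZT12), 8.73 (ZT16), 8.21 and 8.09 (ZT20) in KO. The WT pools gave 8.37 and 8.21 (ZT0), 8.58 and 8.67 (ZT4), 8.68 (ZT8), 8.89 and 8.75 (ZT12), 8.73 and 9.18 (ZT16), 8.76 and 8.49 (ZT20). ZT20 was lowest in KO and ZT0 in WT, and the pools of the genotypes overlapped at all times but ZT20. Its amplitude was 0.25 ± 0.07 log2 in KO (limma adjusted p = 0.171) and 0.26 ± 0.07 log2 in WT (adjusted p = 0.0939), with the largest spread between pools of the 10 members (SD 0.19 log2). Xbp1, whose spliced mRNA encodes the active factor, read 9.75 and 9.85 (ZT0), 9.88 and 10.10 (ZT4), 9.86 and 10.12 (ZT8), 10.36 and 10.13 (ZT12), 10.36 (ZT16), 9.88 and 9.86 (ZT20) in KO. The WT pools gave 9.84 and 9.85 (ZT0), 9.79 and 9.85 (ZT4), 10.09 (ZT8), 10.05 and 10.02 (ZT12), 10.20 and 10.43 (ZT16), 10.09 and 10.09 (ZT20). KO pools were above WT pools at ZT4 and ZT12 and below them at ZT20. Its amplitude was 0.22 ± 0.06 log2 in KO (adjusted p = 0.083) and 0.21 ± 0.05 log2 in WT (adjusted p = 0.0534). Among the fits that leave out 1 array, the KO call appears without KO pool 2 of ZT4 or KO pool 1 of ZT8. The WT call appears when the WT pool of ZT8, KO pool 2 of ZT4, KO pool 1 of ZT8 or the KO pool of ZT16 is left out. It also appears in the fit without the single KO ZT16 and WT ZT8 pools. The probe set does not separate spliced from unspliced Xbp1.

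The fitted peaks fell into an early and a late group, with the same 3 genes early in both genotypes. Herpud1, Dnajb9 and Xbp1 peaked from ZT9.82 to ZT12.8 in KO and from ZT13.1 to ZT15.4 in WT. The other 7 members peaked from ZT15.6 to ZT19.9 in KO and from ZT18.9 to ZT21.7 in WT. Within the late group Hspa5 came first, at ZT15.6 ± 0.62 h in KO and ZT18.9 ± 0.39 h in WT, followed by Pdia4 at ZT17.0 in KO and ZT19.3 in WT and by Hsp90b1 at ZT18.4 in KO and ZT20.3 in WT. Pdia6, Calr, Pdia3 and Canx came last, at ZT19.1, ZT19.2, ZT19.6 and ZT19.9 in KO and at ZT21.0, ZT21.7, ZT21.5 and ZT21.5 in WT, and Calr, Pdia3 and Canx lie closer to each other than the standard error of the Canx peak (1.64 h in KO and 1.83 h in WT). Likewise Herpud1 and Dnajb9 lie closer to each other than the standard error of the Dnajb9 peak in both genotypes. The rank correlation of the 10 peak times between KO and WT was 0.939, given as a description since the genes share the arrays. Over the 22 arrays, Pearson correlations of the log2 values were 0.46 to 0.94 among the 7 late members, 0.70 to 0.84 among the 3 early ones and -0.55 to 0.61 between the groups. The division into early and late was made after the peak times were seen, with 1 probe set per gene. A dimmer probe set of Pdia4, not called in either genotype, peaked between the groups, at ZT13.5 in KO and ZT16.3 in WT.

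**Figure D2:**
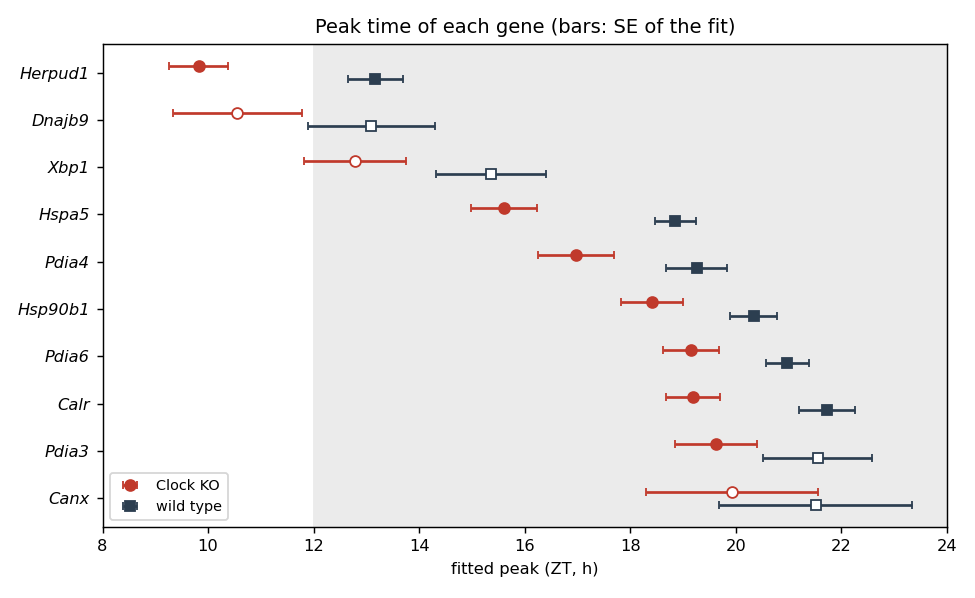
Fitted peak in ZT hours of each gene in Clock KO (red circles) and WT (dark squares), ordered by the KO peak, with bars for the standard error of the fit. Filled symbols mark rhythms called at an adjusted p under 0.05, and the grey area is the subjective night. Each KO symbol lies to the left of its WT symbol, and Herpud1, Dnajb9 and Xbp1 stand apart from the 7 later genes.

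All 10 members peaked earlier in KO. The fitted shift, KO minus WT, was -3.35 h (95% interval -4.93 to -1.77 h) for Herpud1 and -3.24 h (95% interval -4.77 to -1.71 h) for Hspa5. It was -2.55 h (95% interval -4.08 to -1.01 h) for Calr, -2.28 h (95% interval -4.19 to -0.38 h) for Pdia4 and -1.93 h (95% interval -3.46 to -0.40 h) for Hsp90b1. Pdia6 had the smallest shift of the 6 genes called in both genotypes, -1.83 h (95% interval -3.23 to -0.43 h). The intervals of these 6 genes lie wholly below 0. The intervals of the other 4 hold 0. The shift was -2.58 h (95% interval -5.53 to 0.37 h) for Xbp1 and -2.54 h (95% interval -6.09 to 1.02 h) for Dnajb9, and it was -1.93 h (95% interval -4.62 to 0.77 h) for Pdia3 and -1.58 h (95% interval -6.69 to 3.52 h) for Canx. The median over the 10 members was -2.41 h, and over all 137 genes called in both genotypes it was -2.22 h, with 130 of them earlier in KO. The clock genes Arntl, Nr1d1 and Per2 shifted by -3.25 ± 0.68 h, -2.55 ± 0.65 h and -1.89 ± 0.59 h. The quartiles of those 137 genes are -2.92 and -1.17 h, and the 8 members other than Herpud1 and Hspa5 fall between them.

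The median shift kept its sign within each pool series and without the ZT20 pools. It was -2.0 h within pool 1 and -2.55 h within pool 2, with all 10 fitted peaks earlier in both. The shifts ran from -0.02 h (Dnajb9) to -3.79 h (Hspa5) in pool 1 and from -0.42 h (Canx) to -7.14 h (Xbp1) in pool 2. Pool 2 holds no KO array at ZT16 and no WT array at ZT8, so its genotypes were fitted on different times. Within the pool series no KO wave of a member was called (0 in pool 1 and 0 in pool 2), and in WT 3 were in pool 1 and 0 in pool 2. Without the KO ZT20 pools the median shift was -1.94 h, again with all 10 earlier, and the shift was -2.45 h for Hspa5, -1.22 h for Xbp1 and -0.25 h for Dnajb9. The intervals of Hspa5, Hsp90b1, Calr, Pdia4, Pdia6 and Herpud1 lie below 0 in that fit too, with that of Pdia4 ending at -0.00684 h. Without the single KO pool at ZT16, 9 members were earlier and Canx was later by 0.43 h.

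With all arrays, Hspa5 was the member whose amplitude was lower in KO by its interval, and for the other 9 the interval holds 1. Without the KO ZT20 pools the interval of Hspa5 holds 1 as well. The ratio of KO to WT amplitude was 0.626 (95% interval 0.404 to 0.972) for Hspa5. It was 0.79 (95% interval 0.517 to 1.21) for Hsp90b1, 0.812 (95% interval 0.556 to 1.18) for Pdia6 and 0.807 (95% interval 0.467 to 1.39) for Pdia4. For Herpud1 it was 0.928 (95% interval 0.637 to 1.35), for Calr 1.08 (95% interval 0.712 to 1.63) and for Pdia3 1.38 (95% interval 0.665 to 2.87). The intervals of Dnajb9, Xbp1 and Canx are wider still, 0.423 to 2.31 for Dnajb9, 0.503 to 2.2 for Xbp1 and 0.303 to 4.66 for Canx. The median ratio over the 10 was 0.958, and over the 137 genes called in both genotypes it was 0.892. For the clock genes the intervals exclude 1, with ratios of 0.397 (95% interval 0.274 to 0.575) for Arntl, 0.479 (95% interval 0.325 to 0.706) for Nr1d1 and 0.58 (95% interval 0.427 to 0.787) for Per2. Without the KO ZT20 pools, the ratio was 0.746 (95% interval 0.488 to 1.14) for Hspa5 and 0.743 for Dnajb9, and between 0.799 (Herpud1) and 1.79 (Canx) for the other 8.

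**Figure D3:**
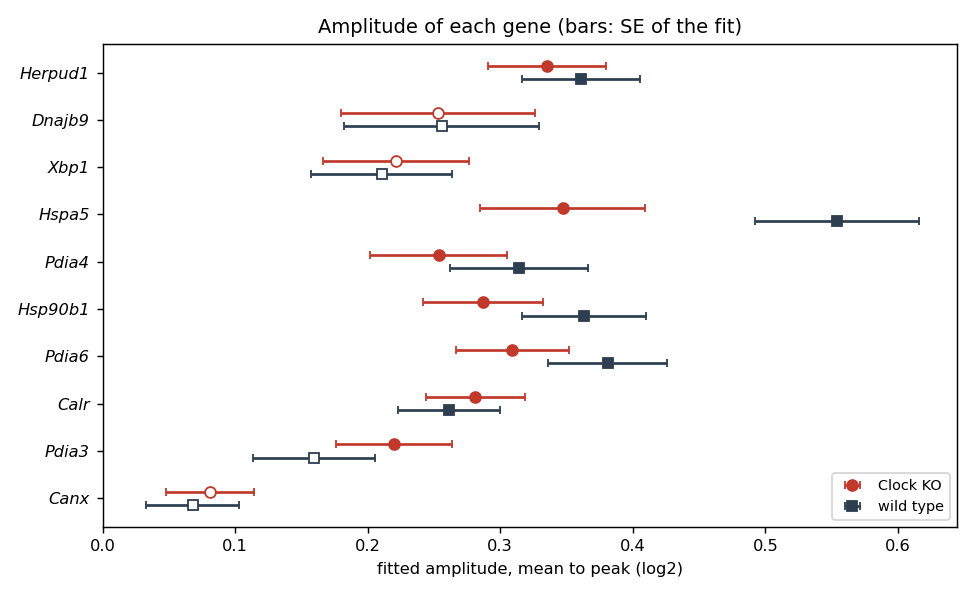
Fitted amplitude, from mean to peak in log2, of each gene in Clock KO (red circles) and WT (dark squares), in the order of the KO peaks, with bars for the standard error of the fit. Filled symbols mark rhythms called at an adjusted p under 0.05. The pairs overlap within their errors for most genes, and Hspa5 is the pair that stands apart, at 0.35 in KO and 0.55 in WT.

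The test of the difference between the whole waves, phase and amplitude together, called 0 of the 10 members in limma and 0.0385% of all genes. At an unadjusted p under 0.05 it held 5 members, against 7.32% of all genes. These were Hspa5 (adjusted p = 0.179 in limma), Herpud1 (adjusted p = 0.338), Calr, Pdia6 and Hsp90b1, the last 3 with adjusted p of 0.548, 0.623 and 0.639. A shift of the waves is therefore described here by its intervals per gene and was not called by the test over all genes.

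Mean levels over the cycle hardly differed. Herpud1 was lower in KO, with a difference of -0.22 ± 0.05 log2 (limma adjusted p = 0.0058). It is the 1 member of 10 called lower, and 0 were called higher, against 3.45% and 4.45% of all genes. Without the KO ZT20 pools its difference was -0.18 log2 (adjusted p = 0.0589). Within pool 1 it was -0.29 log2 (adjusted p = 0.0145) and within pool 2 -0.13 log2 (adjusted p = 0.557). Dnajb9 differed by -0.16 ± 0.08 log2 (adjusted p = 0.222). The other 8 members differed by -0.04 log2 (Hspa5) to 0.06 log2 (Pdia6), with standard errors of 0.03 to 0.06 log2. The median over the members was 0.00756 log2, and over all genes -0.00379 log2.

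Set against each other time by time, 2 members were called at ZT20 and 0 at the other times. The pools of the genotypes lay wholly apart for 3 members at ZT0 (KO below in all 3), for 6 at ZT4 (KO below in 5) and for 4 at ZT8 (KO above in 3). They also did for 8 at ZT12 (KO above in 7), for 6 at ZT16 (KO above in 5) and for 5 at ZT20 (KO below in all 5). WT at ZT8 and KO at ZT16 had a single pool, which lies apart from 2 pools more readily than 2 pools do. The share of all genes with pools apart was not counted, so such counts in this paragraph only describe the members. At ZT12, when the late genes were near their trough in WT, both KO pools were above both WT pools for 7 of the 10 members and below them for Herpud1. The difference was up to 0.42 ± 0.10 log2 (Hspa5, adjusted p = 0.13 in the limma fit of group means). That test called 0 members at ZT12, and 0.0898% of all genes higher and 0.00641% lower. It held 4 members, Hspa5, Hsp90b1, Pdia4 and Pdia6, at an unadjusted p under 0.05, against 6.77% of all genes. At ZT20, 2 members were called and both were lower in KO. They are Hspa5 (-0.50 ± 0.10 log2, adjusted p = 0.0182) and Herpud1 (-0.52 ± 0.12 log2, adjusted p = 0.0455), against 0.751% of all genes called lower and 0.520% higher. Neither call held in all fits that leave out 1 array, since that of Hspa5 was lost in the 4 fits that leave out a ZT20 pool (adjusted p up to 0.172) and that of Herpud1 in the 12 fits that leave out a pool of ZT12 or ZT20 or a WT pool of ZT0 or ZT16 (adjusted p up to 0.429). Dnajb9 was -0.47 ± 0.17 log2 at ZT20 (adjusted p = 0.188), with both KO pools below both WT pools, and was the third member at an unadjusted p under 0.05, against 17.6% of all genes. The ZT20 comparison uses the KO pools that stood apart in Slco1a1, and the part of that in these differences was not tested. At ZT0, ZT4, ZT8 and ZT16 limma called 0 members, against 0.0192%, 0.00641%, 0.0128% and 0.00641% of all genes called higher and 0.00641%, 0%, 0% and 0.00641% called lower. At an unadjusted p under 0.05 there was 1 member at ZT0 (Hspa5), 0 at ZT4, 2 at ZT8 (Hspa5 and Hsp90b1) and 1 at ZT16 (Herpud1), against 4.15%, 3.66%, 5.77% and 6.54% of all genes.

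**Figure D4:**
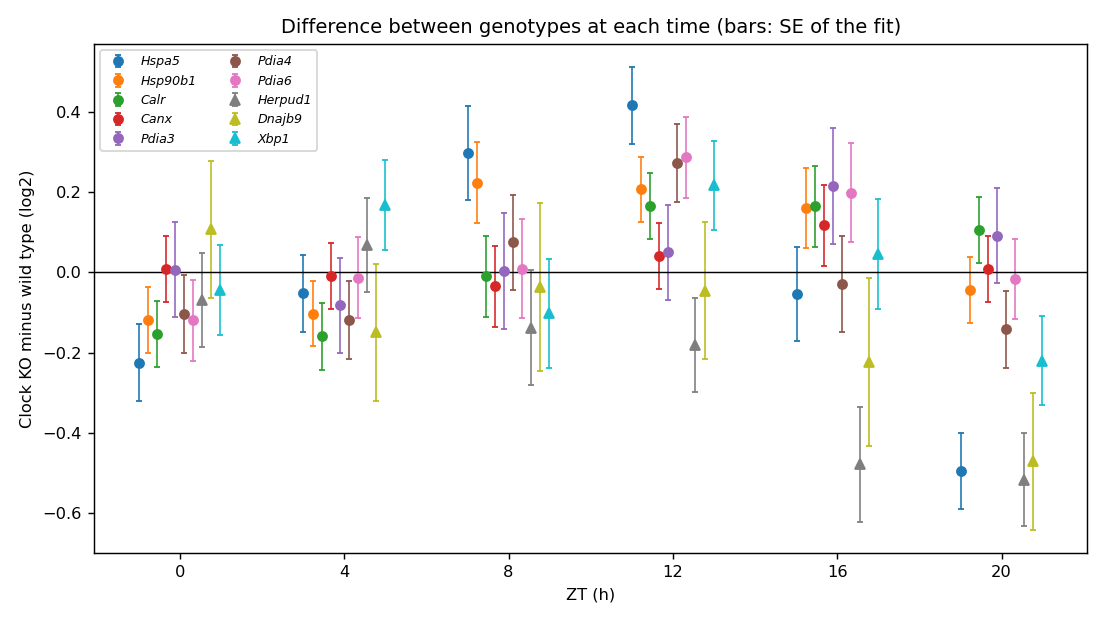
Clock KO minus WT difference in log2 at each ZT for the 10 genes, from the fit of group means, with bars for the standard error. Circles are the 7 late genes and triangles are Herpud1, Dnajb9 and Xbp1. The circles lie mostly below 0 at ZT0 and ZT4 and above 0 at ZT12, and at ZT20 Hspa5, Herpud1 and Dnajb9 are the lowest.

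The step between night (ZT16 and ZT20) and day (ZT4 and ZT8), which assumes no wave shape, was called upward for 5 members in KO and 4 in WT, against 0.160% and 0.327% of all genes. With all 3 night times (ZT12 to ZT20) against all 3 day times (ZT0 to ZT8), 2 members were called in KO and 1 in WT. The share of all genes called was not counted for that split, nor for the fits with arrays left out at the end of this paragraph. Hspa5 rose by 0.54 ± 0.08 log2 in KO (limma adjusted p = 0.00819) and 0.94 ± 0.08 log2 in WT (adjusted p = 2.38e-05), which is 1.46-fold in KO and 1.92-fold in WT. Hsp90b1 rose by 0.53 ± 0.06 log2 in KO and 0.53 ± 0.06 log2 in WT. Pdia6 rose by 0.53 ± 0.08 log2 in KO and 0.44 ± 0.08 log2 in WT, and Pdia4 by 0.45 ± 0.08 log2 in KO and 0.51 ± 0.08 log2 in WT. Calr was called in KO (0.48 ± 0.07 log2, adjusted p = 0.00758) and was 0.26 ± 0.07 log2 in WT (adjusted p = 0.0662). Herpud1 was -0.30 ± 0.09 log2 in KO (adjusted p = 0.193) and 0.16 ± 0.09 log2 in WT (adjusted p = 0.415). The difference of the steps between genotypes was called for 0 members and 0% of all genes in limma, with an unadjusted p under 0.05 for 3 members, Hspa5, Calr and Herpud1, and 5.51% of all genes. Leaving out KO pool 2 of ZT4, of ZT8 or of ZT20 gave 3 KO calls in each case, and without both KO ZT20 pools the step of Hspa5 alone was called (adjusted p = 0.0284).

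Among 59 further genes of ER folding and the unfolded protein response, 6 were rhythmic in KO (10.2%, against 1.89% of all genes) and 7 in WT (11.9%, against 5.16%), each with a peak in the subjective night, and 4 of them were called in both, all with earlier peaks in KO. This list and that of the chaperones outside the ER were also written with earlier results of these data known. The median amplitude of the 10 members was 0.27 log2 in KO and 0.29 log2 in WT. That of the 59 was 0.080 log2 in KO and 0.090 log2 in WT, and that of all genes 0.069 log2 in KO and 0.089 log2 in WT. Without the KO ZT20 pools, 0 of the 59 were called in KO, against 0.077% of all genes, and 7 in WT. The KO values that follow include those pools. The widest swings belonged to Sdf2l1, a component of Hspa5 complexes, with 0.55 log2 in KO (limma adjusted p = 0.0111) and 0.68 log2 in WT (adjusted p = 0.000788). Creld2, an ER stress-inducible protein, had 0.41 log2 in KO and 0.62 log2 in WT, with peaks at ZT14.3 in KO and ZT18.2 in WT. Hyou1, a large Hsp70 that exchanges nucleotide on Hspa5, had 0.39 log2 in KO and 0.58 log2 in WT, and the co-chaperone Dnajb11 had 0.29 log2 in KO and 0.30 log2 in WT. Manf, a secreted protein that binds Hspa5, was called in WT (0.56 log2, adjusted p = 0.000757) and had 0.29 log2 in KO (adjusted p = 0.159). Syvn1, the ligase of ER-associated degradation, and Pdia5 were called in WT (0.26 log2 and 0.18 log2) and Uggt1, which senses the folding of glycoproteins, in KO (0.16 log2). In mean level, Edem1 (-0.29 ± 0.05 log2, adjusted p = 0.00123) and Derl3 (-0.23 ± 0.07 log2), both of ER-associated degradation, were lower in KO, and the isomerase Txndc5 (0.11 ± 0.03 log2) was higher. These are 3.39% of the 59 genes called lower and 1.69% called higher, against 3.45% and 4.45% of all genes, and without the KO ZT20 pools Edem1 alone was called (adjusted p = 0.019).

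The sensors and the Atf4 branch of the response were not called. Atf6, Ern1 and Eif2ak3 had amplitudes of 0.02 to 0.09 log2 in KO and 0.02 to 0.12 log2 in WT, with adjusted p of 0.245 or more. Atf4 and its known targets Ddit3, Ppp1r15a, Trib3, Asns and Chac1 had 0.04 to 0.26 log2 in KO and 0.02 to 0.17 log2 in WT, with 0 of 6 called in limma and 1 at an unadjusted p under 0.05. P4hb, the founding disulfide isomerase, had 0.07 log2 in KO (adjusted p = 0.768) and 0.04 log2 in WT (adjusted p = 0.833). The activity of the sensors was not measured, since it is set by cleavage, splicing and phosphorylation.

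Chaperones outside the ER gave a point of comparison. Of 23 measured genes of the cytosol and mitochondria, 1 was rhythmic in KO (4.35%, against 1.89% of all genes) and 8 in WT (34.8%, against 5.16%), all with night peaks. Without the KO ZT20 pools, 0 were called in KO and 8 in WT. Stip1, which links Hsp70 to Hsp90, was the gene called in both, at ZT16.0 in KO and ZT18.5 in WT. Hsph1, Chordc1, Hsp90aa1, Hspa4l, Hspb1, Dnaja1 and Ahsa1 were called in WT, with amplitudes from 0.23 log2 (Ahsa1) to 0.41 log2 (Hsph1), and had 0.13 log2 to 0.28 log2 in KO. The difference between these shares and those of the ER genes was not tested.

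The genes whose log2 profiles over the 22 arrays were most like the mean of the 10 members came largely from the same lists. By Pearson correlation they were Hyou1 (0.958), Manf (0.944), Creld2 (0.914), Stip1 (0.883), Dnajb11 (0.878), Hspa4l (0.870), Hsp90aa1 (0.855), Sdf2l1 (0.843), Slc30a1 (0.837) and Dnajc3 (0.826). Slc30a1, a zinc exporter, is the gene among them that was on neither list, and its rhythm was not called in KO (adjusted p = 0.484) or WT (adjusted p = 0.0819 in limma). Among the members, Pdia4 (0.943) and Hspa5 (0.932) were closest to the mean of the other 9, and Herpud1 (-0.0198) was farthest. These values share arrays and are a description.

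Of the markers of other cells and tissues, 1 was called rhythmic in KO and 0 in WT, against 1.89% and 5.16% of all genes. In mean level, 3.45% of all genes were called lower in KO and 4.45% higher. Of 9 plasma cell markers, a cell type rich in ER chaperones, all were measured, 2 lay below the filter and the means ran from 3.93 to 7.21 log2. Their summed linear level was 411 to 532 in KO and 423 to 546 in WT. The joining chain gene Jchain, called rhythmic in KO (adjusted p = 0.0488 in limma, and 0.601 without the KO ZT20 pools), peaked in the day at ZT8.81. Derl3, which is also on the ER list, and Sdc1 were called lower in mean level in KO with all arrays. They are 28.6% of the 7 plasma cell markers tested, and 0 were called without the KO ZT20 pools. The 6 other immune markers summed to 836 to 1068 in KO and 851 to 1208 in WT, and 0 of them were rhythmic or differed in level in limma. The 7 adrenal markers, 4 of them below the filter, summed to 162 to 195 in KO and 170 to 225 in WT. The 3 pancreas markers measured, 1 of them below the filter, summed to 93.9 to 130 in KO and 87.1 to 124 in WT. The liver markers Alb, Apoa2 and Ttr, with means of 6.32 to 10.9 log2, summed to 2040 to 3012 in KO and 1564 to 2438 in WT. Of these, Alb was lower in KO (-0.97 ± 0.13 log2, adjusted p = 5.93e-05) and Ttr higher (0.41 ± 0.07 log2, adjusted p = 0.000746). Of the kidney markers, Umod was lower in KO (-0.09 ± 0.03 log2, adjusted p = 0.0475), a call that was lost without those pools. The fat markers Adipoq and Plin1 summed to 74.3 to 323 in KO and 81.9 to 142 in WT. Their part in the rhythms was not tested.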

How the data were processed

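RNA of mouse kidneys was hybridised to 22 Affymetrix whole-transcript arrays, 100 ng of pooled RNA each. Per the submitters' processing notes the authors used RMA, and the deposited value of each probe set is its log2 expression. RMA brings all arrays to 1 distribution, which removes a shift shared by most genes. The software version is not given in the sources used here.

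The platform annotation names 1 gene for 21789 of the 35556 probe sets and several for 1621, and 12146 are unnamed here. The brightest 1-gene probe set stood for each gene, without those whose mean was under the 30th percentile (4.67 log2). Waves of 24 h over all 22 arrays came from limma 3.58.1 (R 4.3.3), with 16 residual degrees of freedom, and group means likewise with 10. Errors given after ± are the fit's standard errors, and intervals of peak times and ratios use the delta method. Groups of 1 pool are assumed to vary like the others. The models were tested on simulated data. The named genes were the members, the 10 genes most like them, the clock references and, per pathway list, up to 8 called rhythms with the largest amplitude and 4 called level differences. The members, lists and tests were chosen with earlier results of these data known, and the counts of lists without the KO ZT20 pools were added after seeing the data.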

Additional observations from a re-analysis of the deposited data

How the results depend on the processing

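The count of members rhythmic in KO, 7 with all arrays, was 3 with a free level at each time, 1 without both KO ZT20 pools, 0 without the ZT20 pools of both genotypes, 0 within pool 1, 0 within pool 2 and 4 without the single KO ZT16 and WT ZT8 pools, an alternative chosen after seeing the data. Leaving out 1 array gave 5 to 8. In WT the 6 calls were 3 within pool 1 and 0 within pool 2, and 6 to 7 with 1 array left out. All genes fell likewise, to 46, 12, 4, 0, 0 and 210 in KO (294 with all arrays) in the same order of alternatives, and to 53 and 6 in WT (804) within the pools, and these fits use fewer arrays or more terms. The cause was not tested beyond that. Other counts beyond 1.5 times were 610 (array weights) and 134 (KO arrays alone) in KO, and 116 (free levels), 313 (WT arrays alone), 424 (without ZT20) and 480 (without the single pools) in WT. With 1 array left out, the all-gene counts ran from 60 (without KO ZT20 pool 2) to 438 in KO, and were lower by over 1.5 times also without KO pool 1 of ZT0 or ZT20 or pool 2 of ZT8 or ZT12, and from 514 (without WT ZT12 pool 2) to 862 in WT. The level call of Herpud1 was lost (0 calls) without the KO ZT20 pools, without all ZT20 pools and within pool 2. It was 1 in all fits that leave out 1 array, and all genes with a level difference (1231) numbered 605, 403, 511 (pool 1), 1 (pool 2) and 2372 (array weights). The 2 calls at ZT20 were 1 without the filter and 0 with array medians subtracted. The 5 KO night steps were 1 without the KO ZT20 pools, 2 with ZT0 and ZT12 included and 3 to 5 with 1 array left out, and the 4 in WT were 1 and 3 to 4. Night steps were not recomputed without a group's single pool. All-gene counts of night steps and of ZT20 calls were not taken under these alternatives. The correlation of the pool 1 minus pool 2 differences was above 0.1 in 22 of 45 pairs of groups and not in all (range -0.43 to 0.54). Pool numbers were therefore not taken as a pairing, although single genes may still differ between pools. Canx was higher in pool 2 in 10 of 10 groups with 2 pools, Herpud1 in 8, Hsp90b1 and Pdia6 in 2, and the other members in 5 or 6. With the pool number as a replicate block, 7 members (KO) and 6 (WT) were rhythmic, 361 and 1101 of all genes were, and no count of member calls moved by over 1.5 times. The median shift ran from -2.75 to -2.0 h and the median amplitude ratio from 0.878 to 1.04 with 1 array left out, and 9 to 10 members were earlier. Tests of the rhythm and night-step differences called 0 members under each alternative run. Of 970 values of single members under other alternatives, 51 lost a call, 7 gained one, 29 peak times or shifts moved by more than their standard error and no called value reversed, and with 1 array left out, of 2120, these were 36, 6, 2 and 0.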

Other observations

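Genes other than the members whose promoter window holds the exact ERSE numbered 32, of which 14 were tested. Of these, 1 was rhythmic in KO and 3 in WT in limma, against 1.89% and 5.16% of all genes, and without the KO ZT20 pools 0 were in KO. Creld2 was called in both genotypes and Acnat2 and Syvn1 in WT, and they are named here after their values were seen. Of 8 tested genes with ERSE-II, Dnajb11 was the 1 called in KO and in WT, and 0 were called in KO without those pools.

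Pdia4 has a second, dimmer probe set with a mean of 5.88 log2. It had an amplitude of 0.38 ± 0.09 log2 in KO with a peak at ZT13.5, and of 0.24 ± 0.09 log2 in WT with a peak at ZT16.3. Neither was called when every probe set was tested without a filter (adjusted p = 0.113 and 0.281 in limma), and both peaks come before those of the bright probe set.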
